A study of Mus musculus with 6 samples.

Results

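RNA G-quadruplexes (rG4s) in noncoding transcripts outside ribosomal RNA made up 228 of the 5538 sites listed in every table of the study. A site belonged here if its transcript region was annotated as non_coding, if it did not lie on the mitochondrial chromosome and if its gene was neither CT010467.1 nor Gm15564, the entries that hold ribosomal RNA. No count of stops or reads entered this choice. The 228 sites fell in 124 of the 2643 gene entries, a gene entry being a gene symbol or the joined symbols of overlapping genes, and 88 of these entries held 1 site. H19, Malat1, Neat1 and Xist together held 50 sites (21.9%). In all, 82 sites overlapped another of the 228, in 32 groups, so that the sites covered 178 separate stretches and neighbours were not independent measurements.

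The annotation describes transcripts, not genes. In the RefSeq table for GRCm38.p6, 133 sites (58.3%) belonged to protein-coding genes that also have noncoding transcripts, 82 (36.0%) to genes of long noncoding RNAs, 5 to small RNA genes and 3 to pseudogenes, and 5 were not listed. Of 140 symbols 128 were found in that table. All 163 sites that could be set against the strand of their gene lay on that strand. By position, 222 sites could be set against the bounds of their RefSeq gene. Of these, 6 lay outside the bounds, 3 of them labelled Scarna2. Gene types go by the label, so these 3 are among the 5 sites of small RNA genes.

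The study followed a clonal mouse embryonic stem cell line, TsixTST/+, derived from a 129S1/CastEiJ x 129S1 cross, which the genotype label calls WT and whose treatment label is None. All groups share the TsixTST allele beside a normal one. Day 0 cells had grown on inactivated feeder cells with leukemia inhibitory factor, whereas day 3 and day 7 cells were embryoid bodies made from feeder-depleted cells without that factor, in suspension until day 3 and attached to gelatin afterwards. Each day has 2 samples, and each sample has 1 library reverse transcribed in K+ and 1 in Li+. All cells were treated with dimethyl sulfate (DMS), and polyadenylated RNA bound to chromatin was isolated. Each day 7 sample carries a further pair of libraries called in vitro, which the labels do not describe further. Both replicates come from 1 clone and are not stated to be separate cultures, so p-values measure only the spread between these samples.

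An rG4 is a stack of planar quartets of guanines, formed by runs of guanines that fold onto each other. Potassium ions sit between the quartets and hold the stack, whereas lithium ions do so poorly, and reverse transcriptase stops when it meets a stable stack at the 3′ side of the motif. DMS methylates guanines where folding does not shield them, so a motif that was unfolded in the treated cell cannot fold again in the tube. The stop share, that is stops per 100 reads over the site, is therefore compared between K+ and Li+. Among the noncoding RNAs here, Xist coats and silences an X chromosome in differentiating female cells, H19 is an imprinted RNA expressed from the maternal copy, Malat1 lies in nuclear speckles and Neat1 builds paraspeckles.

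The motifs at the 3′ end of Xist are shown first because Xist 103460424 had the highest stop share in cells on day 7 and because the others overlap or neighbour it. Coordinates are those of the deposited tables (GRCm38.p6, mm10, counted from 1), sequences are written 5′ to 3′ on the strand of the RNA, and capitals mark runs of at least 3 guanines.
Xist 103460407 (chrX:103460407-103460446, minus strand): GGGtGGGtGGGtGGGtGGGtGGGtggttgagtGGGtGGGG
Xist 103460413 (chrX:103460413-103460446, minus strand): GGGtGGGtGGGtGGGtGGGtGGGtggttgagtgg
Xist 103460424 (chrX:103460424-103460446, minus strand): GGGtGGGtGGGtGGGtGGGtGGG
Xist 103461852 (chrX:103461852-103461877, minus strand): GGGaagtgctggatGGGGGGGGGGGG

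The first 3 motifs lie at 99.7% to 99.8% of the length of Xist from its 5′ end and share their start. They differ in where the enzyme stops, at the 3′ end of the whole run or within it. The fourth holds an unbroken run of 12 guanines at 93.5% of the gene. Xist had 11 sites in 4 clusters, at 99.7% to 99.8%, 96.2%, 93.5% and 5.1% to 5.2% of its length.

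Motifs of Malat1, Neat1 and H19 are shown for the differences between overlapping or neighbouring sites and for the changes described further on.
Malat1 5799376 (chr19:5799376-5799403, minus strand): GGGtGGGcttttgttgatgaGGGaGGGG
Malat1 5797749 (chr19:5797749-5797765, minus strand): GGGaGGGGGGGatGGGG
Malat1 5797755 (chr19:5797755-5797775, minus strand): ggaatgtggaGGGaGGGGGGG
Malat1 5800312 (chr19:5800312-5800329, minus strand): GGGaggagtGGGtGGGGG
Neat1 5844517 (chr19:5844517-5844553, minus strand): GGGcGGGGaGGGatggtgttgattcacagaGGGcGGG
H19 142577233 (chr7:142577233-142577268, minus strand): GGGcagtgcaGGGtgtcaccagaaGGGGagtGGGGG
H19 142577916 (chr7:142577916-142577946, minus strand): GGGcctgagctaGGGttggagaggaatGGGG

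The nested pair of the entry Gm23455;Taf1d and the motifs of Platr10 and AU020206 follow, the pair because 4 more bases went with a different stop share and the others because the reads of their genes fell. In the pair and in AU020206, which belong to the class of motifs with only 2 quartets, capitals mark runs of at least 2 guanines.
Gm23455;Taf1d, stop 15316612 (chr9:15316587-15316611, plus strand): GGtgatGGctGGatGGGGtGGatGG
Gm23455;Taf1d, stop 15316616 (chr9:15316587-15316615, plus strand): GGtgatGGctGGatGGGGtGGatGGctGG
AU020206 75769217 (chr7:75769217-75769235, minus strand): GGGGaGGcacgtGGGcaGG
Platr10 75648452 (chr3:75648452-75648491, minus strand): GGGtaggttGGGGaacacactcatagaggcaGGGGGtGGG

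Small structured RNAs and a snoRNA host are shown because their motifs hold few runs of 3 guanines, and because the sites of Scarna2 and of Zfas1 differed from each other. Capitals again mark runs of at least 3, except in Scarna2 108554720, where they mark runs of at least 2.
Rmrp 43492869 (chr4:43492869-43492928, minus strand): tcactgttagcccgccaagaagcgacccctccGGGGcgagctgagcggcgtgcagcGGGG
Snord118 69073411 (chr11:69073411-69073470, plus strand): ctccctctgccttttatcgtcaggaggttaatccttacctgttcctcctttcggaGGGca
Scarna2 108554376 (chr3:108554376-108554435, minus strand): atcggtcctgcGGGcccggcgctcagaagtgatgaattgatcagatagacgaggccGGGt
Scarna2 108554720 (chr3:108554720-108554741, minus strand): GGGagtgcGGctGGGGctgtGG
Zfas1 167063658 (chr2:167063658-167063692, plus strand): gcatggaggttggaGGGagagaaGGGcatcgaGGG
Zfas1 167065159 (chr2:167065159-167065218, plus strand): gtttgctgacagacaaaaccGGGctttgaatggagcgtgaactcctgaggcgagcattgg

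By structural class, 67 of the 228 sites (29.4%) had bulges, 44 (19.3%) belonged to the class of 2 quartets, 39 (17.1%) were canonical motifs with short loops and 38 (16.7%) had a long loop. A further 37 (16.2%) were labelled potential G-quadruplex and 3 (1.3%) potential triplex, both with at least 40% guanine by the label. The label does not describe every whole motif, since that of Snord118, a potential G-quadruplex by label, has few guanines. Among the 5301 sites in other transcript regions bulges took 42.3%, the class of 2 quartets 19.1%, canonical motifs 15.6%, long loops 12.2% and potential G-quadruplexes 10.0%. The stop lay 1 base past the motif at 98 sites and on its last base at 78, with a range from 3 bases before its end to 2 past it.

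Before the results, the libraries are described. Reads over the 228 sites ran from 3961 to 163387 per library in cells and from 48034 to 181320 in vitro, and the lowest number belonged to the Li+ library of day 3 replicate 2. The sites took 3.25% to 5.43% of listed reads outside ribosomal and mitochondrial RNA on days 0 and 3, 7.16% to 10.6% on day 7 and 10.3% to 15.1% in vitro. The tables never give a coverage from 1 to 5 reads, which makes 5 the most that a listed 0 can hide, and 57 sites were listed at 0 in every day 0 library. Of 18 markers of pluripotent cells 10 were listed, and their summed counts-per-million (CPM) lay between 8187 and 11348 on days 0 and 3 and at 3443 and 3847 on day 7. Of 16 markers of differentiation 7 were listed, at a sum of 0 and 47.3 on day 0, 221 and 454 on day 3, then 2859 and 3236 on day 7. Of 10 markers of feeder cells and mesenchyme 2 were listed. Col1a1 was at 0 until day 3 and at 32.1 and 37.0 on day 7, and the sum with Fn1 ran from 101 to 406. The part of a changing mix of cells in the results below was not tested.

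The in vitro libraries show how strongly each motif stopped the enzyme outside the cell. The stop share in K+ exceeded that in Li+ at all 228 sites in both in vitro samples. The same held at all 5538 sites, so that it describes the tables and is no result about the noncoding sites. The K+ stop share had a median of 51.6% over the 228 sites, from 10.2% to 95.6%, and the Li+ stop share a median of 6.15%. The 5301 sites in other regions had medians of 51.4% and 5.40%. Sites in protein-coding genes had a K+ median of 58.9% and those in long noncoding RNA genes 41.1%. The 5 labelled with small RNA genes had 31.4%, the value of a site labelled Scarna2 that lies outside that gene. By class the K+ medians were 58.8% for canonical motifs, 55.8% for long loops, 52.4% for bulges, 48.2% for the class of 2 quartets and 41.7% for potential G-quadruplexes. Across the 228 sites, which share libraries and in part bases, the K+ share had a Spearman correlation of 0.16 with the percentage of guanine, 0.16 with the number of runs of 3, -0.08 with the longest run and -0.25 with motif length.

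The long noncoding RNAs spread widely. Of the 4 genes with most sites H19 had the lowest median K+ share, 23.9% over 15 sites and a highest mean of 46.5% at H19 142577916. The 12 sites of Neat1 had a median of 40.9% (24.5% to 79.7%), the 12 of Malat1 47.8% (22.7% to 92.3%) and the 11 of Xist 33.2% (13.1% to 95.6%). Malat1 5799376 stopped 91.5% and 93.1% of reads in K+ against 41.8% and 28.0% in Li+. Xist 103460424 stopped 93.9% and 97.2% in K+, the highest mean of the 228 sites, and 63.3% and 67.5% in Li+. Its K+ share was thus far above that of the overlapping site nearer the 3′ end, Xist 103460407, where 56.3% and 54.6% of reads stopped in K+ and 42.4% and 42.8% in Li+. The enzyme comes from the 3′ side, so reads over Xist 103460424 had already passed the stop of Xist 103460407. The shares of these sites thus rest on different sets of reads.

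Adding a run of 2 guanines went with a large difference at Gm23455;Taf1d, where Taf1d encodes a subunit of a factor for ribosomal RNA transcription and hosts snoRNAs. The stop 1 base past the shorter motif took 33.3% and 26.6% of 45 and 79 reads in K+. The stop past the motif with 4 more bases (ctGG) took 86.2% and 85.5% of 370 and 607 reads. In Li+ the values were 5.36% and 5.00% against 4.71% and 7.27%, which do not differ beyond their spread. The enzyme comes from the 3′ side, so reads that ended at the shorter motif had passed the longer one.

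In cells the same motifs stopped few reads, in K+ and in Li+ alike. Pooled over the noncoding sites, the K+ stop share was 3.85% and 3.81% on day 0, 12.4% and 4.77% on day 3, then 6.37% and 4.86% on day 7, against 41.5% and 42.2% in vitro. The Li+ share was 6.02% and 6.52% on day 0, 5.0% and 3.96% on day 3, then 4.82% and 5.74% on day 7, against 10.9% and 10.5% in vitro. K+ was thus below Li+ in both day 0 samples and in day 7 replicate 2, and above it in both day 3 samples and in day 7 replicate 1. The K+ library of day 3 replicate 1 stood apart, and it did so at sites in other regions too, where its pooled share was 9.46% against 4.33% to 5.78% in the other 5 K+ libraries from cells. The exact binomial intervals drawn with these shares cover counting error only, since reads from amplified libraries are not independent molecules.

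**Figure D1:**
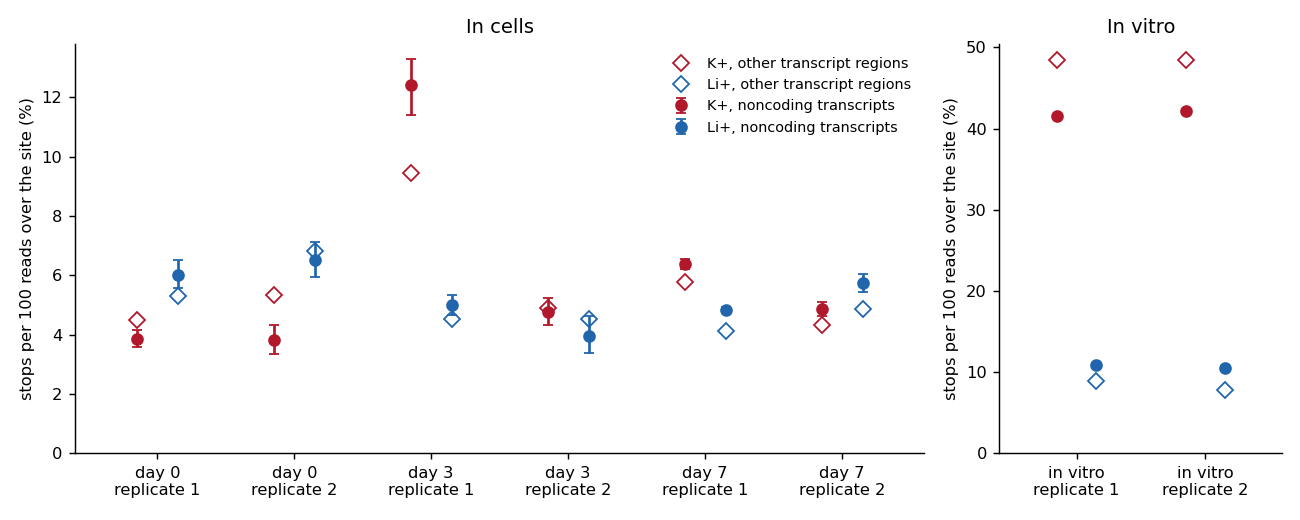
Pooled stop share in percent (stops per 100 reads) of each K+ library (red) and Li+ library (blue), for noncoding sites (filled, with the exact 95% binomial interval) and for sites in other regions (open), from cells on the left and in vitro on the right. The K+ shares in cells lie between 3.81% and 12.4%, with day 3 replicate 1 above the other 5, and those in vitro at 41.5% and 42.2%.

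Counted site by site, with at least 20 reads in both cations, the K+ share was above the Li+ share at 19 of 71 noncoding sites (26.8%) and at 7 of 42 (16.7%) in the day 0 samples. On day 3 it was above at 33 of 45 (73.3%) and 22 of 44 (50.0%), and on day 7 at 105 of 156 (67.3%) and 45 of 112 (40.2%). Sites in other regions gave 41.8%, 29.5%, 73.2%, 59.3%, 65.9% and 41.8% in the same order. Which cation was higher at most sites differed between the replicates of day 7.

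The difference between K+ and Li+ within each day was tested on the log2 odds of a stop in limma, over 847 sites with at least 20 reads in every library from cells, of which 27 were noncoding. The fit had no term for the sample, so it did not use the pairing of K+ and Li+ libraries from the same sample. None of the 27 passed an adjusted p of 0.05 on any day, and neither did any other of the 847 (0% called on each day). At an unadjusted p of 0.05 there were 3 noncoding sites on day 0, all lower in K+, 3 on day 3, all higher, and 0 on day 7, beside 26, 91 and 37 of all 847 sites. Gm23547;Phb2 124715287 had a log2 odds ratio of -1.84 ± 0.62 (SE) on day 0, and Malat1 5801170 and Malat1 5796879 had -1.71 ± 0.70 and -2.38 ± 1.06. On day 3 the smallest p was at Malat1 5799987, where 14.4% and 11.3% of reads stopped in K+ and 4.61% and 1.79% in Li+. That is a log2 odds ratio of 1.81 with a 95% interval from 0.78 to 2.84 (limma, adjusted p = 0.331). Mirg 109749356, in a host transcript of imprinted microRNAs, had 2.45 ± 0.94 on day 3 and Malat1 5796879 had 2.20 ± 0.93.

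Over the 27 sites the median log2 odds ratio was -0.94 on day 0, 0.84 on day 3 and 0.18 on day 7, beside -0.31, 0.69 and 0.22 over all 847 sites. The day 3 median was 0.18 without replicate 1 and 1.86 without replicate 2. The day 7 median was -0.21 without replicate 1 and 0.42 without replicate 2, so 1 sample decided its sign. The change between days was tested in the same fit, with comparisons that share samples. No site passed for day 7 against day 0, day 3 against day 0 or day 7 against day 3, noncoding or other (0% called in each). Unadjusted, 4, 7 and 1 of the 27 passed, beside 55, 106 and 20 of all 847.

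Day 7 had the deepest libraries, and 112 noncoding sites had at least 20 reads in all 4 of them. Their stop share had a median of 4.59% in K+ (0 to 46.5%) and 4.07% in Li+ (0.811% to 26.9%), and the mean K+ share was above the mean Li+ share at 62 of 112. The 2924 sites in other regions had medians of 3.72% and 3.28%, with K+ above at 1728. Among noncoding sites the medians were 4.59% and 4.03% in long noncoding RNA genes (K+ above at 42 of 69). In protein-coding genes they were 4.31% and 3.65% (15 of 31). The 5 sites labelled with small RNA genes had 13.6% and 9.02% (2 of 5), both of them values of Scarna2 sites outside that gene. By class, K+ was above at 10 of 12 canonical motifs (medians 6.73% and 5.36%), 21 of 36 with bulges, 10 of 19 with long loops, 8 of 16 of the class of 2 quartets, 13 of 27 potential G-quadruplexes and 0 of 2 potential triplexes. By gene, K+ was above at 10 of 15 sites in H19, 8 of 12 in Malat1, 6 of 11 in Neat1 and 6 of 11 in Xist.

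Xist 103460424, the run of GGGT repeats with no flank, had the highest stop share of these 112 sites. In K+ 91 of 178 reads (51.1%) stopped there in replicate 1 and 41 of 98 (41.8%) in replicate 2, and in Li+ 64 of 238 (26.9%) and 17 of 63 (27.0%). The K+ and Li+ shares did not overlap, with means of 46.5% ± 6.57 and 26.9% ± 0.066 (SD, n = 2). The smallest p that an exact permutation test of 2 against 2 can give is 0.333. In limma over the 2648 sites with at least 20 reads in all day 7 and in vitro libraries, 108 of them noncoding, the log2 odds ratio was 1.27 (95% interval 0.65 to 1.89), with an unadjusted p of 0.000861 and an adjusted p of 0.495. It was the only one of the 108 past an unadjusted p of 0.05, and none of the 2648 passed the adjusted threshold (0% called).

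At a site that overlaps it and at one further upstream the interval of the difference included 0. Xist 103460407, on the longer stretch, had 6.83% and 6.80% in K+ against 3.85% and 10.0% in Li+, and a log2 odds ratio of 0.25 (95% interval -0.70 to 1.19). Reads that stop there do not reach Xist 103460424, so here too the shares rest on different reads. Xist 103461852, with the long guanine run, had 11.9% and 6.49% against 9.77% and 8.01%, and 0.02 (-0.73 to 0.76). Tsix runs antisense across Xist, and reads of both cannot be told apart unless strand was used in counting, which the labels do not state. On day 0 Xist 103460424 was listed at 0 reads, and on day 3 it had reads in 1 library only, the K+ library of replicate 2 with 5 stops among 7 reads.

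Several other sites with high K+ shares on day 7 had Li+ shares of like size. Snord118, the U8 small nucleolar RNA of ribosomal RNA processing, had 21.6% and 18.5% in K+ and 20.0% and 18.3% in Li+. Rmrp, the RNA of the RNase MRP complex, had a mean of 13.7% ± 2.36 against 14.7% ± 3.23 (SD, n = 2). Neat1 5844517, near the 5′ end, had 16.7% and 18.9% against 11.7% and 20.5%. At these sites the replicates of K+ and Li+ overlapped or lay within each other's spread. Rpl3-ps1, a pseudogene whose reads may come from its parent gene, had 26.3% and 18.9% against 25.4% and 27.8%. Gm45713;Rpl13a 45128658, named after its values were seen, stopped 8 of 35 reads (22.9%) and 2 of 54 (3.70%) in K+ against 1 of 48 in each Li+ library, so that its replicates differed. Srrm2 23822347, named likewise, stopped 2 of 33 and 4 of 25 reads in K+ against 2 of 33 and 0 of 22 in Li+.

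**Figure D2:**
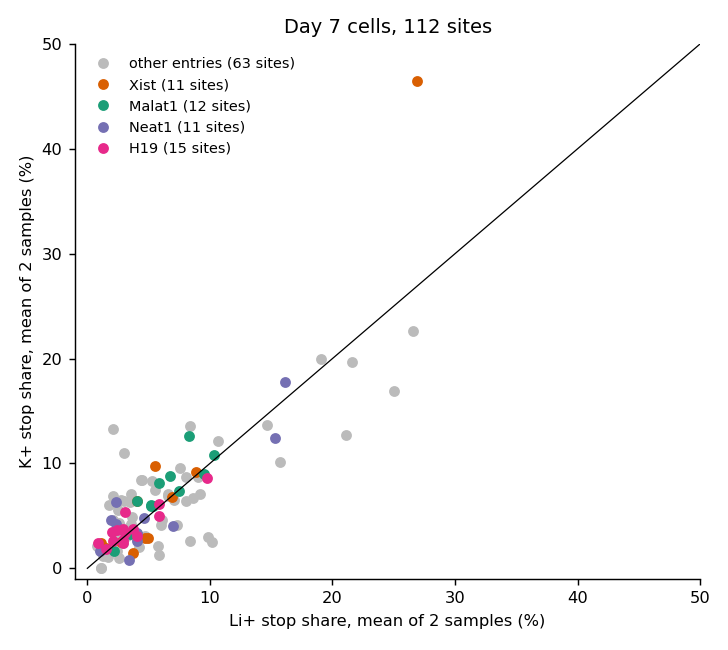
Mean stop share in percent in Li+ (x axis) and in K+ (y axis) on day 7 for 112 noncoding sites with at least 20 reads in all 4 libraries, coloured by gene, with the diagonal marking equality. Xist 103460424 stands alone at 46.5% in K+ and 26.9% in Li+, and 62 of the 112 sites lie above the diagonal.

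Set against the day 7 cells, the in vitro libraries had a larger excess of K+ over Li+ at most noncoding sites. Of the 108 sites, 78 had a higher log2 odds ratio in vitro than on day 7 at an adjusted p under 0.05 in limma (85 unadjusted), and none a lower one. Among all 2648 sites 74.7% were called higher, so the noncoding share was near the background, and the median difference was 2.92 for noncoding sites and 3.36 for all. Every listed site has a K+ excess in vitro, so the direction follows in part from which sites were listed.

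The 3 smallest p-values belonged to sites with strong K+ stops in vitro, though larger differences than those of Malat1 were measured at other sites with wider errors. Gm23455;Taf1d 15316616 stopped 86.2% and 85.5% of reads in K+ in vitro but 9.38% and 10.8% on day 7, where Li+ gave 13.6% and 17.9%. Its difference was 7.05 ± 0.77 on the log2 scale (95% interval 5.55 to 8.56, adjusted p = 1.96e-05). Malat1 5797755 stopped 83.3% and 88.4% in vitro and 10.0% and 4.72% on day 7, a difference of 4.96 ± 0.63 (adjusted p = 5.20e-05). Malat1 5799376 went from 91.5% and 93.1% to 9.57% and 8.40%, a difference of 4.48 ± 0.57 (adjusted p = 5.20e-05). In none of these did the in vitro and day 7 K+ shares overlap.

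The next smallest p-values were those of Scarna2 108554720, which is labelled with the name of a small Cajal body RNA but lies outside the RefSeq bounds of that gene, with 3.80 ± 0.59 (adjusted p = 0.000188), and Rps4l 148355500, in a gene close in sequence to the ribosomal protein gene Rps4x, with 3.97 ± 0.64 (0.000218). H19 142577916 had 4.03 ± 0.65 (0.00023) and H19 142577233, where 40.5% and 43.3% stopped in vitro and 5.25% and 2.30% on day 7, had 3.30 ± 0.58 (0.00041). The site in Gas5, a snoRNA host, had 4.82 ± 0.86 (0.000452), Xist 103461852 had 2.60 ± 0.48 (0.000565) and Mirg 109749356 had 2.97 ± 0.57 (0.000718). Xist 103460424 passed as well, with 2.42 ± 0.60 (0.00334), although it kept the highest stop share in cells.

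The sites with small differences were of several kinds. Rmrp had 1.06 ± 0.38 (adjusted p = 0.022), Snord118 1.19 ± 0.48 (0.0351) and Malat1 5797749 1.13 ± 0.47 (0.0417), which passed. Xist 103460407 had 0.50 (95% interval -0.52 to 1.53) and Scarna2 108554376 0.17 (-0.82 to 1.16), which did not. Both ends of these intervals lie below the median of all sites. At Xist 103460407, Li+ already stopped 42.4% and 42.8% of reads in vitro. Zfas1 167065159 had -0.20 (-2.51 to 2.11), whereas the other site of this snoRNA host, Zfas1 167063658, had 5.94 ± 1.17 (0.00088). Just outside the threshold lay 1110038B12Rik 34952312 with 3.13 (0.0535), Xist 103482047 with 3.41 (0.0552) and the site in Ddx39b with 6.24 (0.0559).

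By group of genes, 22 of 24 sites in the fixed list headed nuclear architecture were called, with a median of 3.70. That list holds Malat1 and Neat1 and also the snoRNA host Gas5. The lists overlap, so some sites count more than once, as Gas5 does among the snoRNA hosts. The imprinted RNAs had 13 of 16 (2.45), the X-inactivation RNAs 8 of 11 (2.60), the snoRNA hosts 6 of 9 (4.16), the structured small RNAs 5 of 9 (1.29), Platr10 1 of 4 (2.96), predicted genes 8 of 17 (2.82) and the remaining symbols 16 of 23 (3.69). Without day 7 replicate 2 the count was 50 of 130 sites, the lowest of the samples left out in turn.

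**Figure D3:**
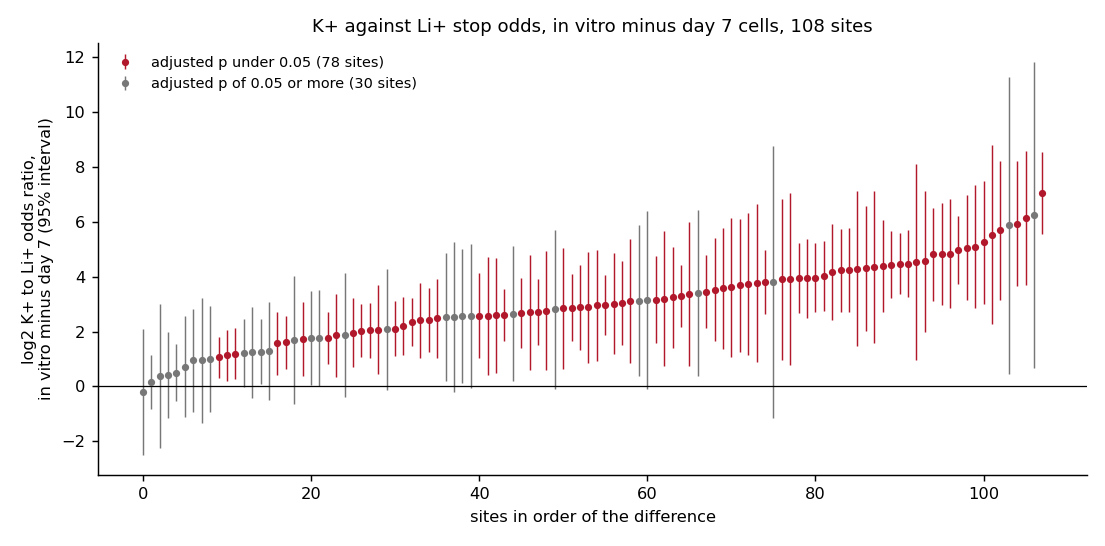
Difference between the in vitro and the day 7 log2 odds ratio of K+ over Li+ (y axis, with the 95% interval) for 108 noncoding sites in order of the difference (x axis). The 78 sites at an adjusted p under 0.05 (red) are all above 0, and the 30 others are grey.

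The amount of each RNA over the days was followed by the reads over its most-read site, K+ and Li+ together, scaled by TMM to CPM. In bulk samples fewer cells of a type and less RNA per cell cannot be told apart. Of 2389 gene entries tested in limma, 71 had a noncoding site as the most-read one. From day 0 to day 7, 11 of the 71 rose and 2 fell, where 15.2% of all entries rose and 3.14% fell. From day 0 to day 3, 1 rose (0.0837% of all entries) and 0 fell (0% of all entries; 4 of the 71 lay there at an unadjusted p under 0.05 in limma). From day 3 to day 7, 8 rose (10.8% of all) and 3 fell (1.88% of all). For day 7 against day 0 these shares were near the background. The median log2 change of the 71 was 0.87, 0.22 and 0.19 in these comparisons, against 0.57, 0.16 and 0.33 over all entries. From day 0 to day 7 it was -0.13 without day 0 replicate 2 (all entries 0.16), 0.09 without day 7 replicate 1 (0.28), 0.30 without day 7 replicate 2 (0.41) and 0.17 with K+ coverage alone (0.49). The sign and the order against all entries thus turned with 1 sample. Of the 11 entries that rose, 7 were listed at 0 in both day 0 samples and could be called only as rises. A further 34 entries were tested at a site in another region, and 2 of these, Tpm1 and Peg3, passed for day 7 against day 0.

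Xist rose at both steps, the first of which rests on few samples. Xist 103460407 was listed at 0 in both day 0 samples, at 53.3 and 89.1 CPM on day 3, then at 449 and 504 on day 7. The rise was at least 5.31-fold by day 3 (limma, adjusted p = 0.0284) and at least 35.5-fold by day 7 (0.000855), both against a floor of 10 reads per sample. The call for day 3 was lost with any one sample other than day 0 replicate 1 left out (adjusted p from 0.0526 to 0.776), with days 0 and 3 fitted alone (0.902) and with the replicate block (0.0595). From day 3 to day 7 it rose by 2.96 ± 0.42 on the log2 scale (0.0051). The 3 days did not overlap. The entry Gm27733;Xist, a little nearer the 5′ end, was at 0 on day 0, at 7.62 and 17.8 on day 3, then at 137 and 172 on day 7, which is at least 11.5 times the day 0 floor (0.000974). Reads of the antisense Tsix, which stem cells express, could not be told apart from those of Xist without strand, and at both positions no reads above the listing limit were given on day 0.

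H19 rose between all pairs of days in its mean, and the steps to day 7 passed. H19 142577233 had 30.8 and 0 CPM on day 0, 398 and 269 on day 3, then 6816 and 2812 on day 7. It rose by 10.47 ± 1.71 on the log2 scale from day 0 to day 7 (adjusted p = 0.00585), a fitted value that depends on the prior count because 1 day 0 sample was at 0. From day 3 to day 7 it rose by 3.72 ± 0.51 (0.00504). The day 7 replicates differed by more than the day 3 mean. Mirg, also imprinted, had 110 and 222, then 232 and 176, then 218 and 251, and did not pass (0.68 ± 0.37, adjusted p = 0.202).

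Of the RNAs of nuclear bodies Malat1 passed and Neat1 did not. Malat1 5799994 had 756 and 1210 CPM on day 0, 1151 and 1273 on day 3, then 2423 and 1998 on day 7, a rise of 1.21 ± 0.30 (adjusted p = 0.0318). This call was lost with any sample but 1 left out (day 0 replicate 2), at adjusted p from 0.0587 to 0.273. Neat1 had 225 and 375, 373 and 495, and 206 and 308, with a change of -0.19 ± 0.36 from day 0 to day 7. Day 0 overlapped the other days, and both day 3 values lay above both day 7 values.

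A few RNAs fell. Platr10, one of a set of long noncoding RNAs linked to pluripotency, had 310 and 91.3 CPM on day 0, 438 and 679 on day 3, then 69.6 and 128 on day 7, and fell by 2.57 ± 0.55 on the log2 scale from day 3 to day 7 (adjusted p = 0.0192). AU020206, a long noncoding RNA, had 162 and 99.2, 121 and 141, and 43.8 and 53.6, and fell by 1.53 ± 0.35 from day 0 (0.0242) and by 1.44 ± 0.36 from day 3 (0.0378). Rps4l had 2457 and 3667, 2213 and 2359, and 1174 and 1105, and fell by 1.39 ± 0.28 from day 0 (0.0136). In all of them the day 7 samples did not overlap the days they were compared with. Reads of Rps4l may include those of its close copies. Under scaling by total counts alone AU020206 was at -1.02 (adjusted p = 0.146) and Rps4l at -0.90 (0.0545), so neither passed. Of the pluripotent cell markers Pou5f1 went from 3217 and 3081 CPM on day 0 to 265 and 766 on day 7 and Epop from 2310 and 4565 to 642 and 445, which carried most of the lower sum. Lin28a went from 701 and 839 to 1370 and 1131, and Trim71 (631 and 385 to 601 and 595) and Sall4 (39.8 and 0 to 46.5 and 85.5) were not lower.

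Small structured RNAs and snoRNA hosts gave no calls. None of 10 entries of structured small RNAs and none of 8 snoRNA hosts passed in any of the comparisons in limma. At an unadjusted p under 0.05 there were 5 of the 10 small RNA entries and 1 of the 8 hosts for day 7 against day 0. For day 3 against day 0 there were 1 and 0, and for day 7 against day 3 there were 1 and 1. Rmrp was nearest, with 1166 and 1641 CPM on day 0, 759 and 624 on day 3, then 683 and 809 on day 7 (-0.89 ± 0.28, adjusted p = 0.0635). Scarna2 had 508 and 462, 457 and 329, and 148 and 380 (-1.07 ± 0.44, 0.114). Snord118 had 587 and 1032, 445 and 812, and 1018 and 444, and Gas5 had 123 and 129, 110 and 131, and 149 and 94.8, with changes of -0.19 and -0.05.

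The other entries that rose from day 0 to day 7 were noncoding transcripts of protein-coding genes with few reads. Sfswap, a splicing regulator, was at 0 on day 0 and day 3 and had 94 and 16 reads on day 7 (1.37-fold or more above the floor, adjusted p = 0.00388). Pfn1, the actin-binding profilin, was at 0 on day 0 and had 52 and 29 reads on day 7 (at least 1.31-fold, 0.00507). Vgll4, a cofactor of TEAD factors, rose by 4.13 ± 0.92 (0.0212) and Obsl1 by 3.75 ± 1.07 (0.048), each with 0 reads in 1 day 0 sample. Tmed10 (0.0122), Luc7l (0.0129) and Fam173a;Gm50367 (0.0302) were at 0 on day 0. Mrps24, a mitochondrial ribosomal protein gene, had 16 and 17 reads on day 3 and 0 on day 7, at least 5.1-fold lower (0.0181). Arglu1 (1.48 ± 0.43, 0.0516) lay just outside for day 7 against day 0.

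These counts rest on both day 7 samples. Without day 7 replicate 1 no entry of 57 passed for day 7 against day 0 (11 unadjusted), and without replicate 2 none of 61 (21 unadjusted), whereas 24 passed without day 0 replicate 1, where 919 of all 2335 entries did. For day 7 against day 3, 2 entries passed with one or the other day 7 sample left out and 0 without day 3 replicate 2. For day 3 against day 0, 10 passed without day 0 replicate 1, where 197 of all 2335 did, and 0 without any of the other 5 samples.

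**Figure D4:**
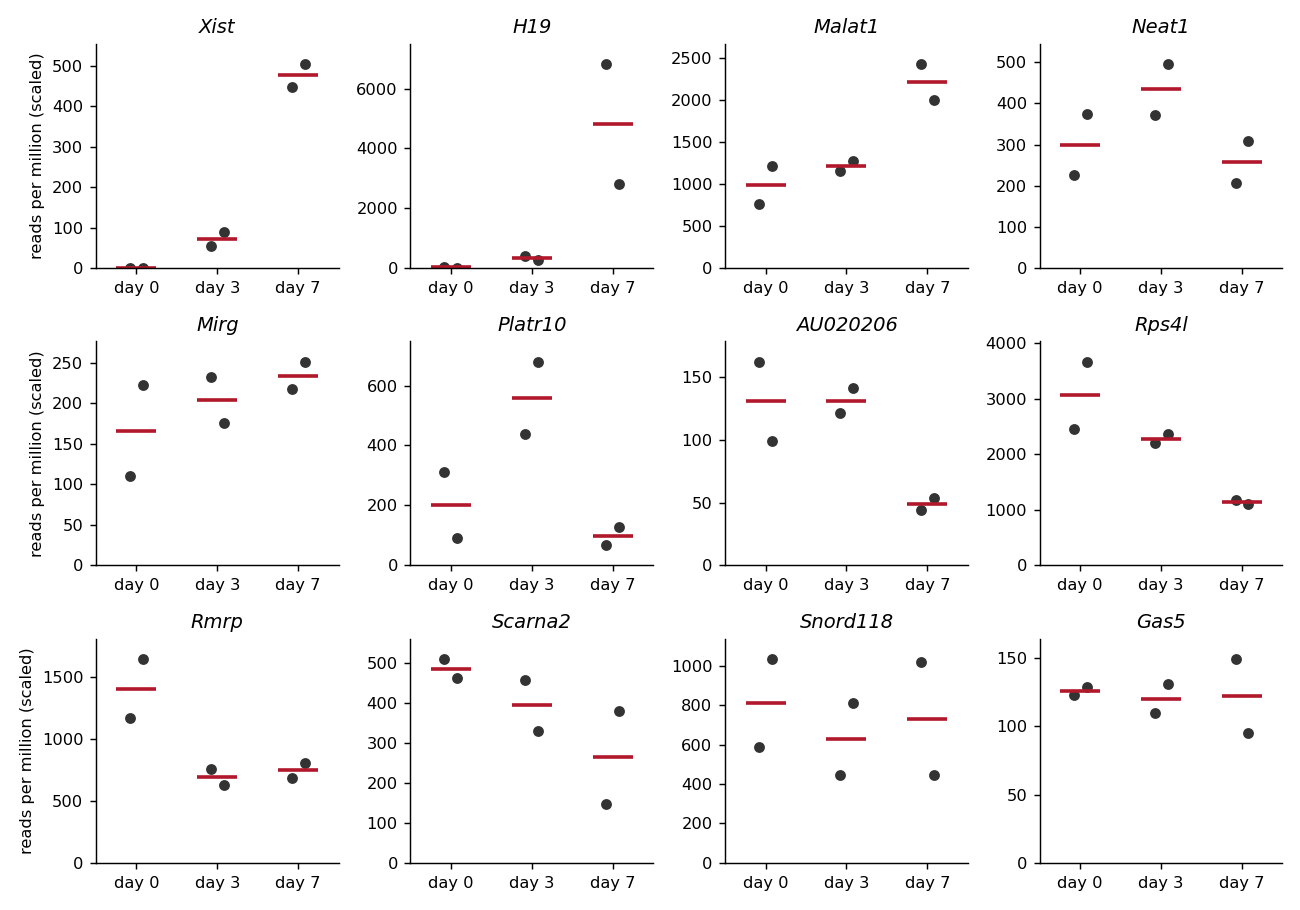
CPM over the most-read noncoding site of 12 gene entries on days 0, 3 and 7 (points, 1 per sample; bars, the mean of 2), each panel with its own linear axis from 0. Xist rises from 0 to 449 and 504 and H19 to 6816 and 2812, AU020206 and Rps4l fall, and Snord118 and Gas5 overlap between days.

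Stops in K+ were last compared between days as counts, scaled by library, which moves with the amount of RNA as well as with the share that stops. The filter left 327 sites, of which 32 in 12 gene entries were noncoding. From day 0 to day 7 12 of the 32 rose (10.1% of all 327) and 0 fell (6.12% of all) at an adjusted p under 0.05 in limma. Of the 12, 11 had 0 stops in both day 0 libraries and 0 to 8 in a day 3 library, so that they passed the filter on low counts through day 7 and could be called only as rises. The count is therefore a description and is not read against the background. From day 0 to day 3 0 rose (0.612% of all) and 0 fell (0% of all), although 10 were higher and 0 lower at an unadjusted p under 0.05. The 1 site lower on day 7 at an unadjusted p was Gm22567 65427514 (-1.75 ± 0.60, adjusted p = 0.0744). From day 3 to day 7 8 rose (5.2% of all) and 0 fell (0.917% of all). All 8 were among the 11 sites with 0 stops in both day 0 libraries, so this count is a description as well. The median log2 change of the 32 was 1.85, 1.02 and 0.82 against 0.16, 0.11 and -0.05 over all 327. The 32 include those 11 sites, so that their medians are not read against the background either. Without the filter on low counts these medians were 0.33, 0.03 and 0.15 against 0.06, 0.03 and 0.14. Scaled by total counts alone, the median over all sites was 1.19 from day 0 to day 7 and that of the 32 was 2.83.

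The 12 sites were 8 in H19, 3 in Xist and 1 in Malat1, so they are few RNAs and partly overlap. H19 142577233 had 0 stops in both day 0 libraries and 461 and 52 on day 7, at least 9.46-fold more (adjusted p = 0.00146). The other 7 H19 sites had 0 on day 0 as well and at least 2.66-fold to at least 6.7-fold more on day 7. Xist 103460424 went from 0 and 0 to 91 and 41 stops (at least 3.22-fold, 0.00348), Xist 103461852 to 67 and 22 (at least 2.01-fold, 0.00146) and Xist 103460407 to 48 and 27 (at least 1.93-fold, 0.00748). Reads of H19, Xist and Malat1 rose over the same days, so the count of stops alone does not separate amount from share.

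Malat1 5800312 was the one site with stops on both days that passed, with 7 and 3 on day 0 and 355 and 84 on day 7, a log2 change of 3.43 ± 0.65 (adjusted p = 0.00765). The reads over this site went from 522 and 1202 CPM to 2349 and 1959 over the same days. Its stop share on day 0 had a mean of 1.32% ± 0.323 in K+ and 3.75% ± 1.94 in Li+ (SD, n = 2). On day 7 the share was 11.7% and 5.91% in K+ and 6.90% and 6.59% in Li+. Both the reads and the K+ share were thus higher on day 7, and the change of the K+ share by itself was not tested. Just outside were Malat1 5799994 with 1.99 ± 0.63 (0.0608), Malat1 5797749 with 2.00 (0.0637) and Malat1 5799376 with 2.42 (0.0675). None of the 4 structured small RNA sites passed (0 unadjusted in limma). Rmrp had 0.30, Scarna2 0.61 and Snord118 -0.36. Mirg had 1.71 (0.15) and Rps4l -0.72.

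By group, all 3 tested sites of X-inactivation RNAs, 8 of 9 imprinted, 1 of 12 nuclear architecture and 0 of 4 small structured RNA sites rose from day 0 to day 7, where the X-inactivation and imprinted sites that rose were the 11 that passed the filter through day 7. From day 3 to day 7 the 8, all among these 11, were 7 sites of H19 and Xist 103461852 (at least 2.21-fold, adjusted p = 0.00381). Xist 103460424 was at 0.051. Without day 7 replicate 1 the day 7 against day 0 count was 4 of 17, without day 7 replicate 2 it was 7 of 18, and without day 3 replicate 1 or 2 it was 19 or 21. For day 7 against day 3 no site passed with one or the other day 7 sample left out, 4 passed without day 0 replicate 1 and 4 without day 3 replicate 1, and 5 without day 0 replicate 2.

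**Figure D5:**
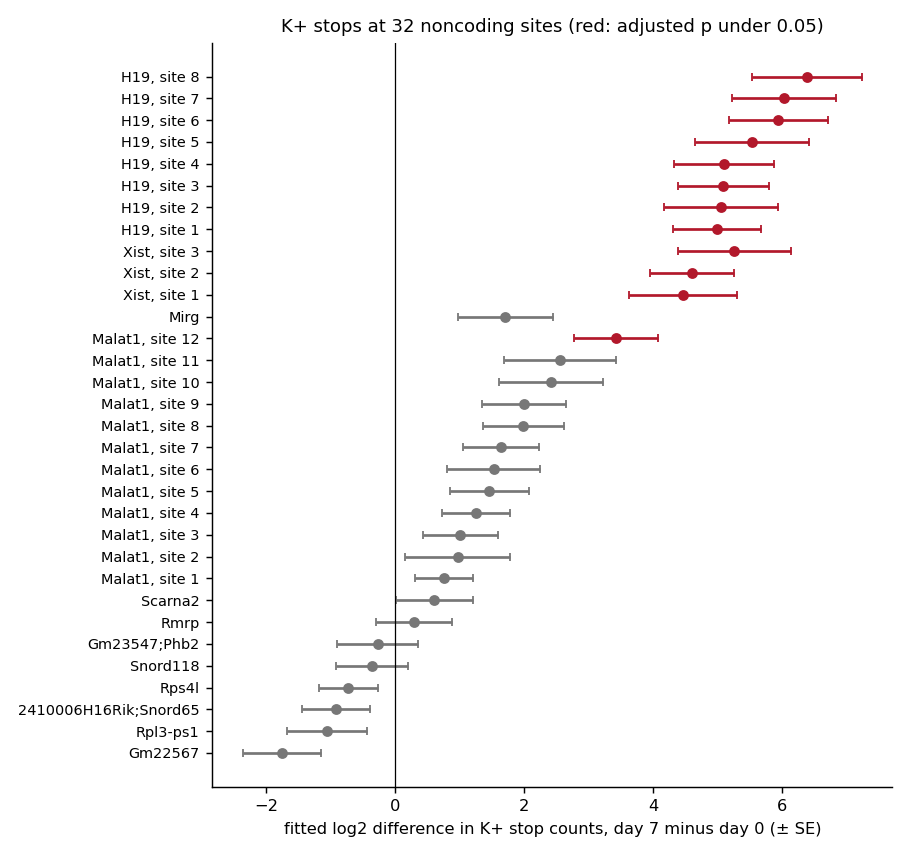
Fitted log2 change of K+ stops from day 0 to day 7 with its SE for the 32 noncoding sites tested, in order, with the 12 at an adjusted p under 0.05 in red. The 8 H19 and 3 Xist sites among them had 0 stops on day 0, so that their fitted values depend on the prior count, and Malat1 5800312 stands at 3.43 ± 0.65.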

How the data were processed

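Polyadenylated chromatin-bound RNA of 6 samples was read out in 12 libraries from cells and 4 in vitro libraries. The deposited tables give, per the file headers, whole counts of stops and reads at 5538 sites. Per the submitters' processing notes, the authors used cutadapt, STAR and SAMtools on mm10 (GRCm38.p6). Versions, strand use and the selection of sites are not stated there. Coverage of 1 to 5 reads was never listed, and 2 Xist sites without a value in day 0 replicate 1 were taken as 0.

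Counts were scaled by TMM, computed directly, and tested in limma 3.58.1 (R 4.3.3) with voom weights. The columns did not pass as plain counts because each record spans 2 lines, so the planned quasi-likelihood alternative was not run. Sites needed about 10 counts in 2 libraries and 15 in all. Log2 odds (pseudocount 0.5, at least 20 reads in every library) were weighted by a beta-binomial variance. The odds fits, in cells and in vitro, took the K+ and Li+ libraries of a sample as independent, without a term for the sample. All p-values were adjusted by Benjamini-Hochberg over all sites or entries tested. Intervals of pooled shares are exact (Clopper-Pearson). Those of log2 odds ratios are normal ones, the estimate ± 1.96 SE, and are too narrow for so few samples. Counts listed at 0 were bounded at 5 stops or 10 reads per sample. Both fits were tested on simulated data.

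The sites and gene lists were chosen with earlier results of these data known. The text names the sites past the threshold (up to 10 with the smallest adjusted p) and up to 3 just outside. It also names most, not all, of the 12 genes with most reads and only part of the members of the lists. Any others were chosen after their values were seen. Motif sequences come from the deposited tables, gene bounds and types from RefSeq (GRCm38.p6). The values of 1 site are not reported here.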

Additional observations from a re-analysis of the deposited data

Results flagged for a closer look

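The excess of K+ over Li+ differed between the in vitro libraries and the day 7 cells at 78 of 108 noncoding sites, by an interaction contrast in limma at an adjusted p under 0.05. All 78 were higher in vitro, with a median difference over the 108 of 2.92 on the log2 odds scale, and 74.7% of all 2648 sites were called higher as well. Every listed site has a K+ excess in vitro, so this direction follows in part from the choice of sites. Groups of 2 samples are too small for a check of single outlying samples.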

How the results depend on the processing

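The calls depend on few samples, and depth limits days 0 and 3, where many sites had under 20 reads. For K+ stops from day 0 to day 7, the 12 calls became 21 under total counts alone, 25 without the filter and 22 with both days fitted alone, and 4 to 21 with 1 sample left out. From day 0 to day 3 the 0 calls became 14 under total counts alone and 0 to 3 with 1 sample left out (3 without day 3 replicate 2, 1 without day 7 replicate 1). From day 3 to day 7 the 8 calls became 21 without the filter, 4 with both days fitted alone, and 0 to 6 with 1 sample left out. For reads, the 13 calls from day 0 to day 7 became 8 with K+ coverage alone, 5 with both days fitted alone, and 0 to 24 with 1 sample left out. The 1 call from day 0 to day 3 became 2 with K+ coverage alone, 0 with both days fitted alone and 0 to 10 with 1 sample left out. The 11 calls from day 3 to day 7 became 0 to 14. For the in vitro excess over day 7, the 78 calls became 48 at a coverage minimum of 50 reads and 50 to 62 with 1 sample left out, with fewer or other sites tested. The change of odds from day 0 to day 3 gave 0 to 1 calls (1 without day 3 replicate 2), and the other odds comparisons in cells 0 under every alternative run. Where an arm kept 1 sample, its spread was assumed to be that of the other groups. The causes were not tested beyond this.

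Between days, deviations of same-numbered samples correlated at 0.01, -0.17 and 0.09 for K+ stops and at 0.25, -0.06 and 0.03 for reads. With 2 samples per day such low values cannot show whether samples were paired by number, and the main fits took them as unpaired. With the replicate block the K+ stop calls were 16, 0 and 8 (day 7 against day 0, day 3 against day 0, day 7 against day 3), the read calls 9, 0 and 9, the odds calls in cells 0 and the in vitro calls 89. When K+ and Li+ were exchanged in day 0 replicate 2, the median day 0 log2 odds ratio of the 27 noncoding sites was -0.17 in place of -0.94. Median-ratio factors, and leaving out ribosomal and mitochondrial sites, kept each count within 1.5 times. Of the values for single sites under an alternative, 408 kept direction and side of the threshold, 110 kept direction but no longer passed, and 0 reversed. The quasi-likelihood count test listed among the alternatives was not run.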
